A study of Mus musculus with 6 samples.

Results

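The genes described here write, copy, read out or remove DNA methylation, or make the co-substrate its removal needs: Tet1, Tet2, Tet3, Tdg, Dnmt1, Uhrf1, Dnmt3a, Dnmt3b, Idh1 and Idh2. They were taken by symbol from RNA-seq count tables of KMWT1, a mouse glioma cell line, and all 10 were found among 24982 gene symbols. The question of the series was how these cells respond when YY1, a transcription factor with zinc fingers, is lowered. Samples 1, 2 and 3 were transfected with a control siRNA and samples 4, 5 and 6 with a pool of siRNAs against YY1, and RNA was taken 48 hours later from all 6. All samples come from the same cell line, grown in serum. The labels give neither the IDH1 or IDH2 genotype of the line nor whether each sample was a culture of its own. If not, the p-values reflect technical spread alone.

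DNA methylation in mammals sits mostly on the cytosine of CpG dinucleotides. DNMT3A and DNMT3B place it on unmethylated DNA, and DNMT1, brought by UHRF1 to the half-methylated DNA that replication leaves, copies it to the new strand. TET1, TET2 and TET3 oxidise methylcytosine in a reaction that uses oxygen, iron and 2-oxoglutarate, and TDG cuts out the most oxidised forms so that repair can restore a plain cytosine. IDH1, in the cytosol, and IDH2, in mitochondria, make 2-oxoglutarate from isocitrate. In many human gliomas a point mutation of IDH1 or IDH2 makes the enzyme produce 2-hydroxyglutarate, which inhibits TET enzymes.

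A RefSeq start site of each of the 3 TET genes is shown first, since it was these genes whose fitted levels lay highest above control. Each window runs from 250 bases before to 50 bases after a RefSeq start site (GRCm38.p6, minus strand, written 5′ to 3′ along the gene), with every CpG in capitals. The windows are chr10:62887275-62887574 for Tet1, chr3:133544341-133544640 for Tet2 and chr6:83441629-83441928 for Tet3. The annotated genes begin further 5′, at 62908996 for Tet1, 133545139 for Tet2 and 83459084 for Tet3. The Tet1 and Tet3 windows thus lie well inside their genes, and the Tet2 window lies near its gene's 5′ end. No window covers the 5′ ends of these 3 annotated genes.
Tet1: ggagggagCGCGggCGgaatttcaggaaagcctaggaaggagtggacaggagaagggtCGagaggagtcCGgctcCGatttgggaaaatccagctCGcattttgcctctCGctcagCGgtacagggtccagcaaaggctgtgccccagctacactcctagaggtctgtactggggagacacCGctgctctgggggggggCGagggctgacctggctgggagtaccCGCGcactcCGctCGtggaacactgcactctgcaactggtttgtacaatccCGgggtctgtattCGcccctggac
Tet2: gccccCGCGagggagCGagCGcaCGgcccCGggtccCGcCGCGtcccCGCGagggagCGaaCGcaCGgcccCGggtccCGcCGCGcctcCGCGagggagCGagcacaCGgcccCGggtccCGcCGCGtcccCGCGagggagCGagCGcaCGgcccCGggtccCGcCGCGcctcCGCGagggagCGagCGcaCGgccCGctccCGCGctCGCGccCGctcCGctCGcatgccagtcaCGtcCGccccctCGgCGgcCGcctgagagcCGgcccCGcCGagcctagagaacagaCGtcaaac
Tet3: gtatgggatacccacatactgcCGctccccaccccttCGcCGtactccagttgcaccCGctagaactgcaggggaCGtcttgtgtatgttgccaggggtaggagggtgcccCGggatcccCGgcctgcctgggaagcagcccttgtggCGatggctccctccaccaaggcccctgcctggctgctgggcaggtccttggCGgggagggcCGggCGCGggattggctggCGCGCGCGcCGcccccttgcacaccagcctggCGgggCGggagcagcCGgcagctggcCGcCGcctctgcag
The Tet2 window held 57 CpGs, against 17 for Tet1 and 22 for Tet3 and a median of 7 over 32851 windows of 300 bases in the same table. Its ratio of observed to expected CpG was 1.17, against 0.607 for Tet1, 0.576 for Tet3 and a median of 0.384. The YY1 motif AANATGGCG, searched on both strands, was in 0 of the 16 windows of the 10 genes and in 2.38% of all windows. The shorter AANATGG, which the longer motif contains, was in 0 of the 16 and in 16.1% of all windows. These letters were looked for only in windows around annotated starts.

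Libraries held 15738457 to 20644057 counts in genes, at which 3 counts equal 0.144 to 0.196 CPM (counts scaled by library size, here with TMM, a normalization for library composition). The targeted gene was lower in every YY1 siRNA sample. Yy1 stood at 127, 128 and 126 CPM in control samples 1 to 3 and at 81.2, 77.6 and 78.6 CPM with YY1 siRNA 4 to 6, which is 62.3% of control (95% interval 56.5% to 68.6%, edgeR adjusted p 0.00154). YY1 was therefore lowered and not removed at the RNA level. By means over the 6 samples, 6 of 8 glioma stem and progenitor markers stood at 10 CPM or more, while Olig2 and Prom1 had no count in any sample. Of 7 astrocyte markers 5 had a mean under 1 CPM, Gfap, Aqp4 and Slc1a3 among them, while Gja1 had 583 to 650 CPM and S100b 6.76 to 10.1 CPM. Means under 1 CPM were also found for 5 of 6 neuron, 4 of 5 oligodendrocyte, 5 of 6 microglia and macrophage and 4 of 5 endothelial markers. The exceptions included the microglial marker Tmem119 at 39.3 to 52.2 CPM and the endothelial Cdh5 at 43 to 57.5 CPM. Of 7 fibroblast and pericyte markers 5 had a mean of 10 CPM or more, Dcn only just, at 9.68 CPM with control siRNA and 11.9 CPM with YY1 siRNA. Sample 6 stood apart on the first principal component (43.0% of variance) and sample 4 on the second (19.0%). Samples 5 and 6 had the largest shares of counts assigned to no gene, 10.7% and 11.3%, against 7.99%, 8.64% and 9.03% in control samples 1 to 3 and 7.87% in sample 4.

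None of the 10 genes passed the test over all genes. A filter on low counts kept 9 of them and left out Tdg. The test, edgeR's quasi-likelihood F test with p-values adjusted by Benjamini and Hochberg over 12148 genes, called 0 of the 9 at an adjusted p under 0.05, and DESeq2 and limma-voom called 0 as well. Over all genes the share called was 0.00823% by edgeR, which is Yy1 alone, and 0.152% by DESeq2. At an unadjusted edgeR p under 0.05 there were 3 of the 9, Tet2, Tet3 and Uhrf1, all higher, where 10.8% of all tested genes had such a p and 5.38% had one and were higher. The 9 genes had a median log2 fold change of 0.022, with 6 above 0 and 3 below. All tested genes had a median of 0.0007, with 50.2% above 0. The groups did not overlap for 2 of the 9, Tet1 and Uhrf1, both higher, where this held for 16.3% of all tested genes in either direction and for 7.36% higher. The plot of CPM by sample shows the values of all 10 genes.

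**Figure D1:**
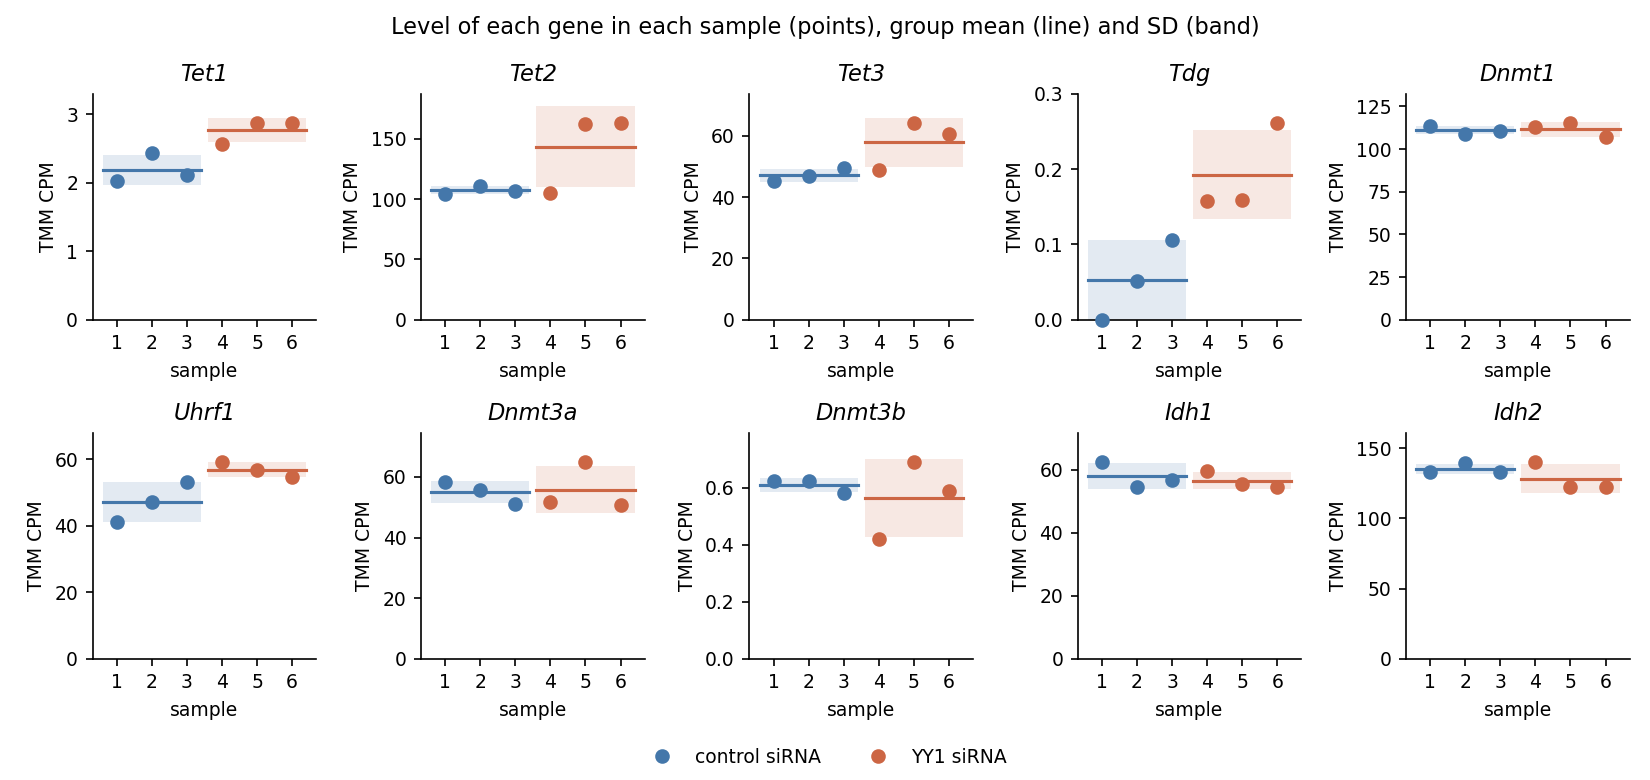
TMM-normalised CPM (vertical axis, from 0) of each of the 10 genes in samples 1 to 6 (horizontal axis), with control siRNA in blue and YY1 siRNA in orange. Points are samples, lines group means and bands 1 SD (n = 3). Tet2 stands at 162 and 163 CPM in samples 5 and 6 and at 104 to 111 CPM in the other 4.

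The TET genes had fitted changes above 0, and Tet2 and Tet3 were high in samples 5 and 6 only. Tet2 (chromosome 3, 133463679 to 133545139, minus strand, mm10), the most abundant TET transcript here, had 104, 111 and 107 CPM in control samples 1 to 3 and 105, 162 and 163 CPM with YY1 siRNA 4 to 6. Sample 4, in which Yy1 was also lowered, lay inside the control range, so the groups overlapped. The fitted level was 134% of control (95% interval 103% to 173%), a log2 fold change of 0.42 (SE 0.16, edgeR p 0.0323, adjusted p 0.42).

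Without YY1 siRNA sample 4, Tet2 had a log2 fold change of 0.61 (SE 0.06) and passed (edgeR adjusted p 0.0105), the only one of the 9 to do so, where 0.335% of tested genes were called. Samples 5 and 6, the YY1 siRNA samples left in that fit, had larger shares of counts in no gene than the control samples. With this no-gene share as a covariate and all 6 samples, the Tet2 change was 0.13 on the log2 scale (SE 0.074, edgeR p 0.118, adjusted p 0.711). Since the share was itself largest in YY1 siRNA samples 5 and 6, a fit with this covariate cannot fully separate it from the siRNA. Without sample 5 and without sample 6, and with no covariate, the Tet2 change was 0.32 and 0.31, with adjusted p of 0.462 and 0.681.

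Tet3 (chromosome 6, 83362373 to 83459084, minus strand) had 45.2, 46.8 and 49.4 CPM in control samples and 48.8, 64.1 and 60.5 CPM with YY1 siRNA. Samples 5 and 6 were again above all others and sample 4 lay within the control range. The fitted level was 123% of control (95% interval 106% to 142%, edgeR p 0.00957, adjusted p 0.317). Its log2 fold change of 0.29 became 0.41 without sample 4 (adjusted p 0.0553) and 0.14 with the covariate (adjusted p 0.7).

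Tet1 (chromosome 10, 62804570 to 62908996, minus strand) was scarce, with 42, 47 and 40 counts in control and 49, 54 and 44 counts in YY1 siRNA samples. These counts equal 2.02, 2.44 and 2.12 CPM and 2.57, 2.87 and 2.87 CPM. All 3 YY1 siRNA samples lay above all 3 control samples, by a margin that such counts do not measure well: the fitted level was 126% of control with a 95% interval of 97.4% to 164% (edgeR p 0.0745, adjusted p 0.494). Per length, Tet2 made up 68.2% ± 0.908 of the TET RNA in control and 69.7% ± 2.57 in YY1 siRNA samples (SD, n = 3), Tet3 30.3% ± 0.994 and 28.8% ± 2.34, and Tet1 1.52% ± 0.119 and 1.51% ± 0.241. The mean makeup of the family thus differed between groups by less than its spread in the YY1 siRNA samples. By sample, the Tet2 share was 68.5%, 68.9% and 67.2% in control samples and 66.8%, 70.5% and 71.7% in YY1 siRNA samples 4 to 6. Samples 5 and 6 lay above the control range and sample 4 below it. The length-scaled sum of the 3 TET genes was 9.01, 9.53 and 9.44 CPM per kb in control samples and 9.30, 13.7 and 13.5 CPM per kb in YY1 siRNA samples.

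Other RNAs stood high in samples 5 and 6 together with Tet2 and Tet3. Their lists were chosen with earlier results of these data known, so their levels are a description and no independent support. Of 6 nuclear-retained noncoding RNAs 5 were tested, and their mean log2 level, relative to control, was -0.12, -0.02 and 0.14 in control samples 1 to 3, -0.27 in sample 4 and 0.38 and 0.42 in samples 5 and 6. Meg3, the untested one, had 1 count in sample 1 and 0 in the others. The summed level of all 6 ranged from 1891 to 2417 CPM with control siRNA and from 1636 to 2691 CPM with YY1 siRNA. Malat1, the most studied of them, had 515, 456 and 615 CPM with control siRNA and 362, 704 and 770 CPM with YY1 siRNA. Kcnq1ot1 had 5.24, 6.59 and 8.25 CPM and 4.77, 11.9 and 10.8 CPM, and Airn 6.06, 7.73 and 6.35 CPM and 7.34, 8.50 and 8.75 CPM. Neat1 had 1446, 1316 and 1683 CPM and 1168, 1700 and 1788 CPM, and Tug1 98.1, 105 and 105 CPM and 93.7, 109 and 114 CPM. For Neat1 and Tug1, samples 5 and 6 lay only slightly above the highest control sample. The 5 genes of a list known for introns that stay in polyadenylated RNA, Clk1, Clk2, Clk4, Ogt and Mdm4, had mean log2 levels of -0.05 in sample 4 and 0.29 and 0.40 in samples 5 and 6, against -0.10, 0.08 and 0.02 in control. Their summed level ranged from 829 to 909 CPM with control siRNA and from 779 to 1212 CPM with YY1 siRNA. Clk2 did not follow the mean, with 8.95, 12.2 and 10.5 CPM with control siRNA and 11.7, 12.3 and 11.2 CPM with YY1 siRNA. The share of all tested genes that stood high in samples 5 and 6 is not given here. The part of these differences in the TET values was not tested.

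**Figure D2:**
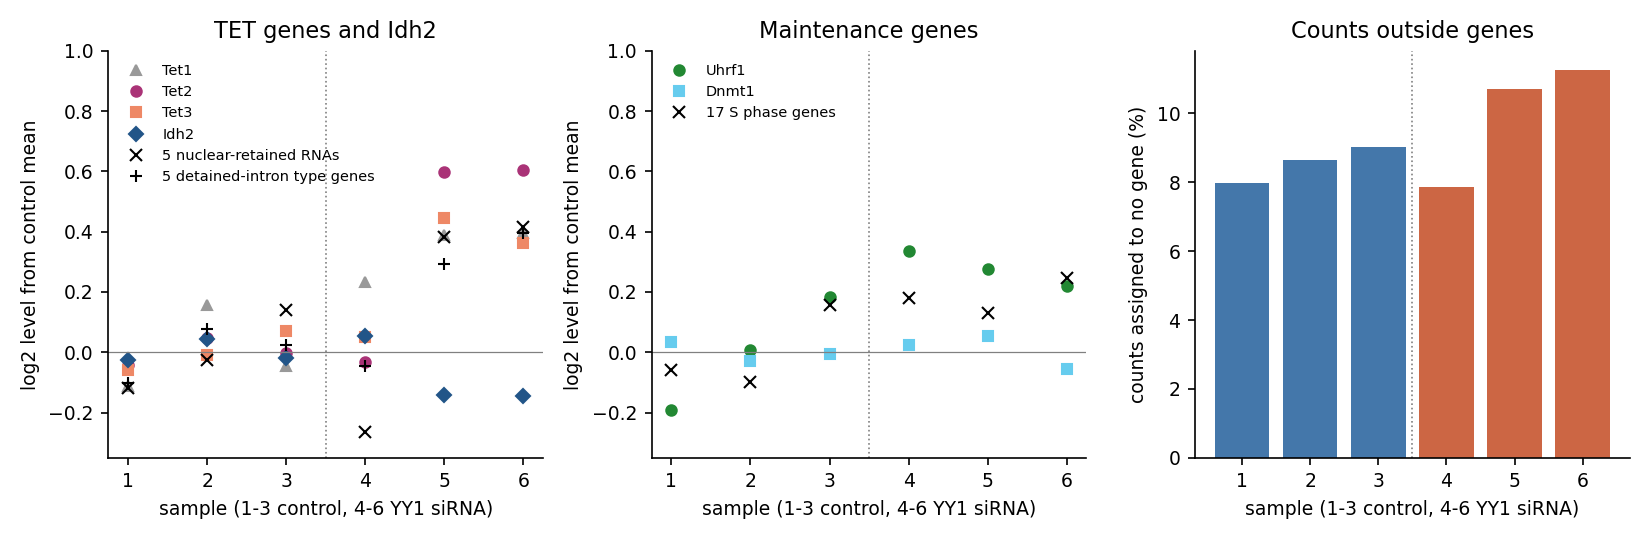
Left and middle, log2 level of single genes and mean log2 level of gene lists in each sample relative to the control mean. Right, percent of counts assigned to no gene, as bars from 0 (blue control siRNA, orange YY1 siRNA). Tet2, Tet3, the nuclear-retained RNAs and the share of counts in no gene are highest in samples 5 and 6, where Idh2 is lowest.

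Tdg could not be measured with these counts. The gene (chromosome 10, 82629828 to 82650799, plus strand) had 0, 1 and 2 counts in control samples and 3, 3 and 4 counts in YY1 siRNA samples, and no fold is given for numbers at or near the 3-count limit. Its sequence is repeated elsewhere in the genome: of the stretches of 50 bases in its longest annotated transcript, 66.3% also occur in transcripts of other loci, chiefly the processed pseudogenes Tdg-ps, Gm9855 and Gm5597. Gm9855 had 0 counts in all 6 samples. The 3′ end of Tdg also overlaps the opposite-strand gene Glt8d2 over 367 bases of exon, 6.83% of the Tdg exon length. How reads that match several loci were counted is not stated in the sources used here, and a low count does not show a low level of the transcript.

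The maintenance methyltransferase gene stayed close to its control level, and its partner Uhrf1 had a fitted level above control. Dnmt1 (chromosome 9, 20907209 to 20959888, minus strand) had 114, 109 and 111 CPM with control siRNA and 113, 115 and 107 CPM with YY1 siRNA. The groups overlapped, and the fitted level was 101% of control with a 95% interval of 91.1% to 111% (edgeR adjusted p 0.969).

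Uhrf1 (chromosome 17, 56303321 to 56323486, plus strand) had 41.1, 47.2 and 53.3 CPM with control siRNA and 59.2, 56.8 and 54.6 CPM with YY1 siRNA. The groups did not overlap, but control sample 3 lay closer to the YY1 siRNA samples than to control sample 1. The fitted level was 121% of control (95% interval 105% to 138%, edgeR p 0.011, adjusted p 0.334). Unlike Tet2 and Tet3, Uhrf1 was not highest in samples 5 and 6, and its log2 fold change of 0.27 was 0.27 with the no-gene share as a covariate. Without control sample 1 it was 0.18 (adjusted p 0.913). Of the stretches of 50 bases in Uhrf1 transcripts, 15.4% occur in 2 processed pseudogenes.

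The mean level of genes of S phase, when Uhrf1 and Dnmt1 act, and of proliferation was also lowest in control samples 1 and 2. This did not hold for every gene of the list. The mean log2 level of 17 S phase and proliferation genes was -0.06, -0.10 and 0.16 in control samples 1 to 3 and 0.18, 0.13 and 0.25 in samples 4 to 6. Their summed level ranged from 1074 to 1265 CPM with control siRNA and from 1257 to 1306 CPM with YY1 siRNA, with all 17 detected. With edgeR 0 of the 17 passed, 15 had a fitted change above 0 and 6 had an unadjusted p under 0.05, all higher. Over all tested genes 50.2% were above 0 and 5.38% had such a p and were higher. The replicative helicase subunit Mcm4 had 44.1, 41.6 and 48.5 CPM with control siRNA and 55.8, 53.3 and 51.4 CPM with YY1 siRNA, and the ribonucleotide reductase subunit Rrm2 34.6, 35.4 and 43.2 CPM and 43.9, 47.0 and 47.7 CPM. The part of these differences in the Uhrf1 value was not tested.

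The de novo methyltransferases did not differ beyond their spread. Dnmt3a (chromosome 12, 3806007 to 3914443, plus strand) had 58.3, 55.8 and 51.0 CPM with control siRNA and 51.9, 64.9 and 50.7 CPM with YY1 siRNA. Sample 5 was highest and sample 6 lowest of all 6, and the fitted level was 102% of control (95% interval 87.7% to 118%, edgeR adjusted p 0.943). The antisense gene Dnmt3aos overlaps 133 bases of its exons, and whether counting used strand is not stated in the sources used here.

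Dnmt3b (chromosome 2, 153649450 to 153687730, plus strand), best known from early embryos, had 13, 12 and 11 counts in control and 8, 13 and 9 counts in YY1 siRNA samples. With so few counts the interval was wide, 56.0% to 152% of control (edgeR adjusted p 0.916), and a change within that range was not detectable at this depth. Of the stretches of 50 bases in its transcripts, 9.8% are shared with Dnmt3c, a rodent relative not analysed here. Per length, Dnmt1 made up 81.5% ± 0.9 of the RNA of the 3 methyltransferase genes in control and 81.4% ± 1.72 in YY1 siRNA samples (SD, n = 3).

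Neither IDH gene differed beyond its spread. Idh1 (chromosome 1, 65158616 to 65186500, minus strand) had 62.5, 54.5 and 56.8 CPM with control siRNA and 59.7, 55.4 and 54.7 CPM with YY1 siRNA. Control sample 1 was the highest and control sample 2 the lowest, and the fitted level was 97.7% of control (95% interval 87.2% to 109%, edgeR adjusted p 0.885).

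Idh2 (chromosome 7, 80094846 to 80115392, minus strand) had 133, 139 and 133 CPM with control siRNA and 140, 122 and 122 CPM with YY1 siRNA. Samples 5 and 6 were the lowest and sample 4 the highest of all 6, the reverse of where Tet2 stood in samples 5 and 6. The fitted level was 0.95 times that of control (95% interval 0.849 to 1.06, edgeR p 0.334, adjusted p 0.712). Without sample 4 its log2 fold change of -0.07 became -0.14 (p 0.0449, adjusted p 0.252), and with the covariate it was -0.0003. Per length, Idh2 made up 71.4% ± 1.87 of the RNA of the 2 genes in control and 70.8% ± 0.678 in YY1 siRNA samples (SD, n = 3).

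**Figure D3:**
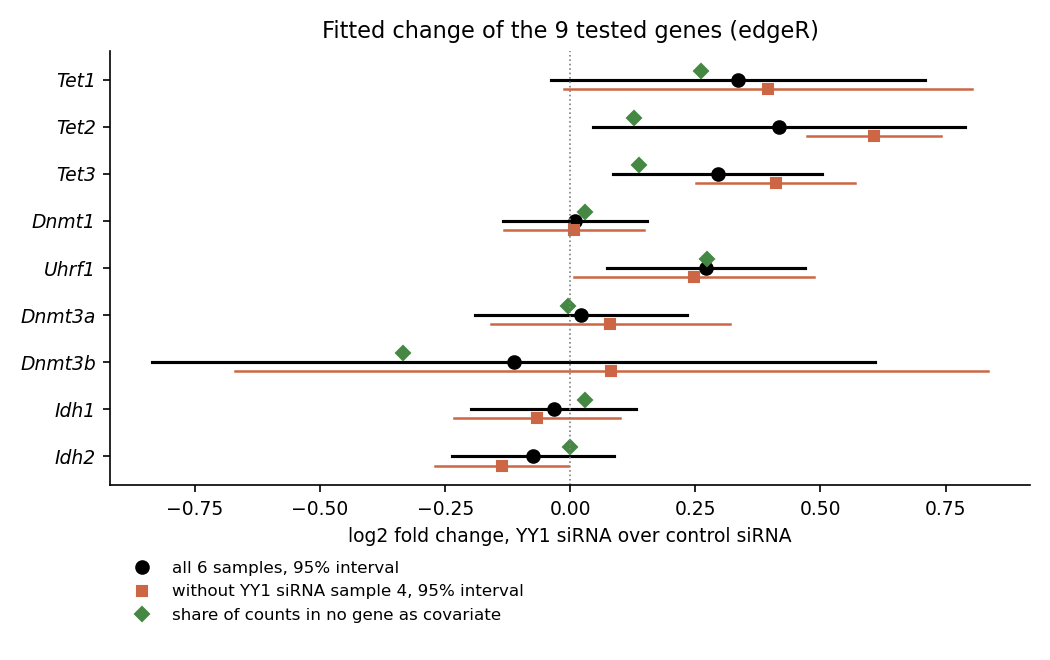
Fitted log2 fold change, YY1 siRNA over control siRNA, of the 9 tested genes. Black circles use all 6 samples and orange squares leave out YY1 siRNA sample 4, each with its 95% interval, and green diamonds add the no-gene share as a covariate. The Tet2 values are 0.42, 0.61 and 0.13, and the Uhrf1 values 0.27, 0.25 and 0.27.

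The intervals of 6 of the 9 genes lay within 1.5-fold in either direction, as did those of 82.2% of all tested genes. The 3 wider ones were those of Tet1, Tet2 and Dnmt3b.

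Levels of the genes were compared per kilobase of annotated exon. In control samples the order was Idh2 (52.2 ± 1.34 CPM per kb), Idh1 (20.9 ± 1.48), Dnmt1 (15.04 ± 0.33), Uhrf1 (11.1 ± 1.43), Tet2 (6.36 ± 0.198), Dnmt3a (3.31 ± 0.223), Tet3 (2.82 ± 0.127), Tet1 (0.142 ± 0.0142) and Dnmt3b (0.119 ± 0.00477, each SD, n = 3), with Tdg last at 0.0098 ± 0.0098. Over all 6 samples the ranges of Uhrf1 and Tet2, of Dnmt3a and Tet3, and of Tet1 and Dnmt3b overlapped, so these neighbours were not separated beyond the spread over both groups, although Uhrf1 lay above Tet2 and Tet1 above Dnmt3b within each of the 6 samples. The ranges of Uhrf1 and Tet2 met only at 9.656 and 9.663 CPM per kb. The other neighbours were in the same order in all 6 samples with no overlap. The position of Tdg rests on the same few counts as above. The length is that of all annotated exons together, which is longer than the isoform a cell uses, and the plot of length-scaled levels has a log axis.

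**Figure D4:**
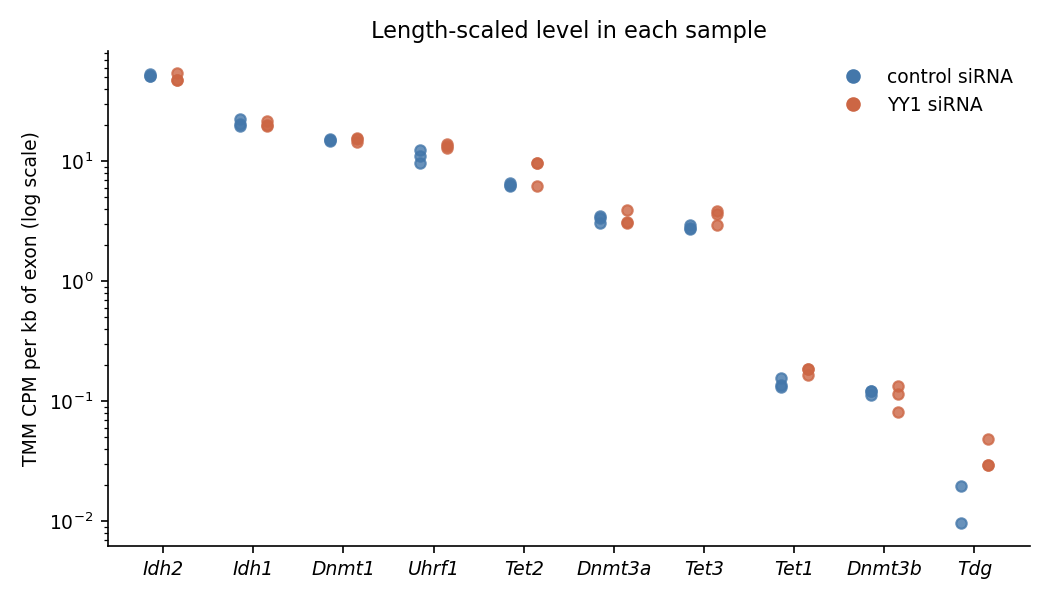
TMM CPM per kilobase of annotated exon (log scale) of the 10 genes in order of their control mean, with 1 point per sample, control siRNA in blue at left and YY1 siRNA in orange at right. Tet1, Dnmt3b and Tdg lie under 0.2 CPM per kb and the other 7 above 2.7, and the Tdg value of 0 in control sample 1 is not drawn.

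Other genes of the pathway also gave no call over all genes with edgeR. The 10 lists of related genes held 125 genes, of which 102 were tested. Of these 0 passed, 14 had an unadjusted p under 0.05 (12 higher and 2 lower, 13.7% against 10.8% of all tested genes), limma-voom called 0 and DESeq2 called 1, Sdha (adjusted p 0.0225).

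Among partners of maintenance methylation, 9 of 11 were tested, with a median log2 fold change of 0.070. The replication clamp gene Pcna had 79.7 ± 11.1 CPM with control siRNA and 93.5 ± 9.58 CPM with YY1 siRNA (SD, n = 3), and the remodeler gene Hells 19.0 ± 0.638 and 21.2 ± 1.56 CPM. All 10 methyl-CpG reader genes were tested, with 5 fitted changes above 0, 5 below and a median of -0.004. Mbd3 had 136 ± 0.606 and 124 ± 9.19 CPM and Mbd4, a glycosylase that also reads methyl-CpG, 6.87 ± 0.513 and 7.99 ± 0.571 CPM.

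Of 14 genes for removal and repair of oxidised or mismatched bases 13 were tested, with a median of 0.0044. Neil3, a glycosylase, had 7.46, 8.20 and 10.1 CPM with control siRNA and 10.8, 10.5 and 12.7 CPM with YY1 siRNA. Apex1, the endonuclease that cuts the site a glycosylase leaves, had 22.9, 23.5 and 23.5 CPM and 21.8, 18.3 and 17.4 CPM. These 2 genes had an unadjusted p under 0.05 (edgeR p 0.00919 and 0.0123, adjusted p 0.317 and 0.346), in opposite directions, and for both the groups did not overlap. Over all tested genes 10.8% had such a p, and the groups did not overlap for 16.3%.

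Of 6 TET regulators 5 were tested, 1 with a fitted change above 0. That one was Ogt, whose sugar transferase binds TET2 and TET3, at 467, 512 and 509 CPM with control siRNA and 416, 691 and 706 CPM with YY1 siRNA, high in the same 2 samples as Tet2 (edgeR adjusted p 0.584). Ogt is also in the list of genes with retained introns above. Methyl donor genes gave 14 tested of 17 with a median of 0.016. The thymidylate synthase gene Tyms stood at 13.9 ± 2.92 CPM with control siRNA and 17.1 ± 1.93 CPM with YY1 siRNA (SD, n = 3, edgeR adjusted p 0.472).

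All 25 genes of 2-oxoglutarate metabolism were tested, with 16 fitted changes above 0 and a median of 0.019. Sdha, a succinate dehydrogenase subunit, had 216, 218 and 203 CPM with control siRNA and 175, 162 and 147 CPM with YY1 siRNA, with no overlap (edgeR adjusted p 0.147). The subunit genes of the third isocitrate dehydrogenase stayed close to control, with Idh3a at 49.95 ± 3.76 and 53.0 ± 2.2 CPM, Idh3b at 90.7 ± 1.08 and 92.0 ± 6.29 CPM and Idh3g at 103 ± 0.694 and 98.0 ± 7.92 CPM (named outside the rule, chosen after their values were seen).

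Of 18 germline genes whose promoters are known to be silenced by DNA methylation in somatic cells, 17 had a mean over the 6 samples under 1 CPM and 8 had no count in any sample, Dazl, Ddx4 and Sycp1 among them. Dppa2, among the 17, had 0.571 to 1.26 CPM. Brdt, a testis bromodomain gene, had 5.87, 7.42 and 7.25 CPM with control siRNA and 8.65, 6.69 and 10.7 CPM with YY1 siRNA. The groups overlapped (edgeR adjusted p 0.482). The summed level of the list ranged from 7.94 to 9.58 CPM with control siRNA and from 8.39 to 13.8 CPM with YY1 siRNA, and 0 of its 3 tested genes had an unadjusted p under 0.05.

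The genes most like each of the 9 in pattern were found by Pearson's correlation of log2 CPM over the 6 samples, which share libraries, against 12147 other genes. With so many genes and 6 samples, values near 1 occur for every gene, and they are given as a description. For Tet2 they were Nufip2 (r = 0.9997), Zmym6 (0.998) and Uhrf1bp1l (0.996), and for Tet3 Rbm12b2, Clasrp and Acin1 (0.993 to 0.991). For Tet1 they were Slc27a1, AI504432 and Stk35 (0.985 to 0.979), for Dnmt1 Gng7, Elavl1 and Lars (0.990 to 0.975), and for Uhrf1 R74862, Epb41l5 and Ctla2a (0.996 to 0.988). For Dnmt3a they were Nova1, Camsap2 and Tnks2 (0.998 to 0.985), and for Dnmt3b Itpripl2, Herc1 and Ralgapa1 (0.990 to 0.985). For Idh1 they were Klk8, Pde9a and Mfap1a (0.979 to 0.963), and for Idh2 Prrc1, Mta1 and Emb (0.997 to 0.990). No gene among the 10 was among the 3 most like another.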

How the data were processed

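RNA-seq was done on 3 control siRNA and 3 YY1 siRNA samples. The authors deposited raw read counts per gene symbol, in a file for each sample. Per the submitters' processing notes, STAR 2.6.1a, edgeR 3.30.0 and mouse build mm10 were used. How reads were counted, with which annotation and strand setting, is not stated in the sources used here. The file of sample 6, unlike the others, is not marked as combined. Rows that name no gene (7.87% to 11.3% and 1.01% to 1.15% of counts) stayed out of library sizes and tests. Samples within a group differed by more than sampling noise in every pair (chi-square over its degrees of freedom, 3.13 to 32.5), and each counted as 1 replicate.

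Counts were tested with edgeR 4.0.16 in R 4.3.3 (filterByExpr, TMM, robust quasi-likelihood F test, two-sided, Benjamini-Hochberg over 12148 genes, threshold 0.05), a script also tested on simulated data. Of 200 genes changed there by 1.25-fold, 12% passed, beside 5 false calls. At 1.5-fold 79.5% passed, beside 22 false calls, and at 2-fold 93%, beside 14. Most changes of 1.25-fold were thus missed. Standard errors came from the fold change and F statistic. Alternatives were RLE, upper quartile and library size scaling, other filters, DESeq2 1.42.0, voom (limma 3.58.1), non-robust dispersion, the no-gene share as covariate, and each sample left out.

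Lengths and loci came from GENCODE M21 (98.03% of symbols matched), promoters from RefSeq (all 10 genes matched). The 10 genes and all lists were chosen with earlier results of these data known. Genes named are the 10, Yy1, the 3 most like each and up to 4 per list with the smallest unadjusted p. Cell type markers, Clk1, Meg3, Neat1, Gm9855, Glt8d2, Dnmt3aos, Dazl, Ddx4, Sycp1 and the Idh3 genes were named outside that rule. Values of some genes that this rule takes are not reported here.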

Additional observations from a re-analysis of the deposited data

Results flagged for a closer look

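Counts outside any gene, used here only as a covariate, made up 10.7% of the library in sample 5 and 11.3% in sample 6, above the highest control sample at 9.03%. The remaining YY1 siRNA library, sample 4, had 7.87%. Samples 5 and 6 are those in which Tet2 (162 and 163 CPM) and Tet3 (64.1 and 60.5 CPM) were highest and Idh2 (122 CPM in each) was lowest. The cause was not tested.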

How the results depend on the processing

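No paired analysis was run, since the labels do not state whether any control sample is paired with a YY1 siRNA sample. Of the 10 genes, 0 passed under each of the 9 alternatives that keep all samples, and 0 to 1 when a sample was left out. The 1 was Tet2 without YY1 siRNA sample 4, with a log2 fold change of 0.61. The number of all genes called was 7 under library size scaling, 83 with no low-count filter and 19 under DESeq2. It ran from 1 to 41 when a sample was left out, with 41, 3 and 2 for YY1 siRNA sample 4, YY1 siRNA sample 6 and control siRNA sample 3. What set these counts apart was not tested. Yy1 passed in each of these fits. Tet1, Tet2, Tet3 and Uhrf1 stayed above 0 and Idh2 below 0 in all 15 alternatives (Tet2 0.13 to 0.61, Tet3 0.14 to 0.41, Uhrf1 0.18 to 0.37, Tet1 0.26 to 0.42, Idh2 -0.14 to -0.0003). Of 134 values for the 9 tested genes, 9 changed sign, all of genes near 0: Dnmt1 under library size scaling (-0.012), and Dnmt3a (-0.0052) and Idh1 (0.030) with the no-gene share as covariate, and the others in fits that left out a sample. With a sample left out, the ranges were -0.015 to 0.033 for Dnmt1, -0.10 to 0.080 for Dnmt3a, -0.30 to 0.082 for Dnmt3b and -0.076 to 0.024 for Idh1. Dnmt3b, at -0.11 in the main settings, was -0.33 with the no-gene share as covariate. A filter of 1 CPM in 3 samples also left out Dnmt3b. The counts of Tet1, Dnmt3b and Tdg limit what could be seen of these genes.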
